A study of Mus musculus with 16 samples.

Results

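The genes described here make cholesterol and fatty acids. They were taken by symbol from a list of 33, with 21 in a sterol arm (mevalonate and sterol enzymes and their regulators) and 12 in a fatty acid arm (synthesis, elongation and desaturation). Of these, 32 were among the 12100 genes of the expression table, 20 in the sterol arm and 12 in the fatty acid arm; Hmgcs1, which makes the precursor of mevalonate, was not analysed here. RNA was sequenced from mouse embryo fibroblasts (MEFs) to ask how Arkadia, a ubiquitin ligase of TGFβ signalling encoded by Rnf111, shapes the transcriptome before and after TGFβ. The 16 libraries fall into 2 sets. Set A holds Ark+/+ cells (WT) and Ark-/- cells (null), each untreated (0 h) or given TGFβ at 2.5 ng/ml for 1, 4 or 16 h. Set B holds Ark-/- cells reconstituted by retrovirus with wild-type Arkadia (rvArkwt) or with the sim mutant of Arkadia (rvArksim) at 0, 1 and 4 h, and null cells at 0 and 1 h. Both reconstituted lines therefore carry the Ark-/- background, and no library of null cells with an empty virus was used here, so an effect of infection and one of Arkadia cannot be told apart in set B. Apart from null at 0 h and 1 h, with 1 library in each set, each line was sequenced once at each time, so the spread of a line comes from its different times. Separate cultures are not mentioned in the labels. The p-values rest on the variation left after line, set and time are fitted. That variation mixes library-to-library scatter, which could be technical, with any TGFβ response that differs between lines. In such bulk RNA, fewer cells that express a gene and less RNA per cell cannot be told apart.

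Cholesterol is built from acetyl-CoA through mevalonate, isoprenoid diphosphates and squalene, and lanosterol is then trimmed to cholesterol. Fatty acids are built from the same acetyl-CoA by acetyl-CoA carboxylase and fatty acid synthase, and are then lengthened by elongases and given double bonds by desaturases. Both routes are switched on by SREBP transcription factors, encoded by Srebf1 and Srebf2. When sterols are scarce, the escort protein SCAP carries the SREBP precursors to the Golgi for cleavage, and when sterols are plentiful, INSIG proteins hold SCAP back in the endoplasmic reticulum. Fibroblasts use the pathway mainly to supply membranes.

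Promoters are shown because SREBPs work with partner factors, NF-Y at the CCAAT box and Sp1 at the GC box, and many sterol genes differed between lines together. RefSeq promoter windows (GRCm38.p6, 250 bases before to 50 after the start) were found for 25 of the 32 members, 16 in the sterol arm and 9 in the fatty acid arm. On both strands, the CCAAT box (CCAAT) was present in at least 1 window of 14 of 16 sterol genes (87.5%) and 6 of 9 fatty acid genes (66.67%), against 41.06% of all 27025 genes with a window and 43.3% of the 8882 genes of the expression table. The GC box (GGGCGG) was present in 15 of 16 sterol genes (93.75%) and 5 of 9 fatty acid genes (55.56%), against 38.2% of all genes and 70.16% of those in the expression table. The letters TCACNCCAC, a strict spelling of the sterol regulatory element, were in no window of the 25 members and in 1.436% of all genes with a window and 1.317% of those in the expression table. The E-box CACGTG was in 4 sterol genes and 1 fatty acid gene, against 8.093% of all genes with a window and 11.72% of those in the expression table. None of these letters contains another of them. The 250 bases before the start are printed for 3 sterol genes that were lower in WT than in null, Cyp51, Insig1 and Idi1, chosen after the motif counts were seen, with capitals marking the CCAAT box (ATTGG where it lies on the opposite strand).
Cyp51, chr5:4104698-4104947, minus strand: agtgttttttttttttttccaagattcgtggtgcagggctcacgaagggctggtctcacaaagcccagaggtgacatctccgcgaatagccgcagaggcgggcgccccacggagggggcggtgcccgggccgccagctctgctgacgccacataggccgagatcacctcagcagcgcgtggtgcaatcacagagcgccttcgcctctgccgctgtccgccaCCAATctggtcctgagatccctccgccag
Insig1, chr5:28071162-28071411, plus strand: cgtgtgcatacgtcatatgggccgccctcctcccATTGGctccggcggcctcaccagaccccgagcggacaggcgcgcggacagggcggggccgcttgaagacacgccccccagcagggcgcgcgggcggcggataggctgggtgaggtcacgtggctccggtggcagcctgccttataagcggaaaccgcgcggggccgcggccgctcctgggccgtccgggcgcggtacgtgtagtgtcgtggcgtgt
Idi1, chr13:8885356-8885605, plus strand: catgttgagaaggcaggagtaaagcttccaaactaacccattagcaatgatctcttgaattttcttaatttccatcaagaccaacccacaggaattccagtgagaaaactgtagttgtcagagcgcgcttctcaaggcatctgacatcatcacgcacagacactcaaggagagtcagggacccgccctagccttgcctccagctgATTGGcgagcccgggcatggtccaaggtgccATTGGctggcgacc
In Cyp51 the box began 29 bases before the start, and in Idi1 a pair of boxes on the opposite strand began 45 and 14 bases before it. In Insig1 the match, also on the opposite strand, lay farther off, 216 bases before the start. Srebf1, which was higher in WT than in null, held a CCAAT box too, 166 bases before the start in 1 of its windows, and is not printed. A match is a spelling in the sequence and was not measured as a bound site.

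The checks of the libraries bear on how far a line difference can be read. Rnf111 followed the labels in every library, from 0.163 FPKM on average in null of set A and 0.481 in null of set B to 14.8 in WT, 59.7 in rvArksim and 112.8 in rvArkwt (FPKM, fragments per kilobase of transcript scaled to the fragments sequenced). Total FPKM per library ran from 397019 to 481970, and the null libraries of sets A and B correlated at a Spearman rho of 0.961 at 0 h and 0.964 at 1 h across genes, which are not independent replicates. Of 10 fibroblast markers 8 were in the table, with summed levels of 2697 to 3129 FPKM in WT, 6155 to 6369 in null of set A, 6560 to 6730 in null of set B, 8328 to 9162 in rvArkwt and 7740 to 8012 in rvArksim. Of 8 epithelial markers 4 were in the table, summing to 271.7 to 523 FPKM in WT and to 10.7 to 42.4 elsewhere, while Epcam and Cdh1 had no row. The sum does not stand for each marker. In the fit of WT against null of set A described below, 1 of the 4 was higher in WT (log2 difference 6.56) and 3 were lower. The median of the 4 was -1.21. Adipocyte markers were present for 2 of 10 (Lpl and Cebpa), endothelial markers for 3 of 6 without Pecam1 and Cdh5 (6.45 to 13.5 FPKM summed), haematopoietic markers for 4 of 6 without Ptprc (6.36 to 17.7 FPKM summed), and none of the 8 hepatocyte markers had a row.

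All 32 members were detected in every library and all had a high enough mean (1 FPKM or more) to enter every fit. Their mean over the 16 libraries ran from 1.19 FPKM for Acss2, a cytosolic acetyl-CoA synthetase, to 190.2 FPKM for the desaturase Scd2. In the fatty acid arm the desaturases stood highest, with Fads2 at 131 and Fads1 at 77.7 FPKM after Scd2. In the sterol arm the highest means belonged to Fdps (58.3), Sqle (53.4) and Srebf2 (50.9) and the lowest to Hsd17b7 (6.88) and Tm7sf2 (3.27). FPKM is scaled to transcript length, so these levels can be set side by side. Fads1 and Fads2 are neighbours on chromosome 19. Scd1 and Scd2 are close paralogs, and their values are uncertain to the extent that reads were shared between them. For 7 members the row named a transcript variant, so the value may be that of an isoform.

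WT and null cells were compared over their 4 times to ask how the pathway differs with Arkadia present or lost. The sterol arm was lower in WT: 12 of 20 genes passed as lower, 1 as higher and 7 did not pass, with a median log2 difference of -0.36. The fatty acid arm was split, with 5 of 12 genes higher, 4 lower and 3 not passing, and a median of -0.13. The background is broad, since 30.1% of the 10976 genes tested were lower and 37.4% higher in WT (limma on log2(FPKM + 1), time as a block, adjusted p below 0.05), with a median over all genes of 0.07. Summed over the arm, sterol genes stood at 311 to 362 FPKM in WT and 455 to 709 in null, without overlap, while the fatty acid arm overlapped at 570.2 to 639 in WT and 569 to 854 in null. Fibroblast and epithelial markers, given with the library checks, differed with the same contrast. So did the adipocyte markers Lpl and Cebpa (27.2 to 54.7 FPKM summed in WT, 72.7 to 119 in null), the haematopoietic markers (6.36 to 7.97 in WT, 13.2 to 17.1 in null) and Xist (2.31 on average in WT, 48.8 in null), and their part in these differences was not tested. The sums hide single genes. Only 1 adipocyte marker was high enough to be tested, and it was lower in WT (-1.39). Of 2 haematopoietic markers tested, 1 was higher (0.96) and 1 lower (-1.70). WT and null are separate lines, so genotype and any other difference between the lines cannot be told apart.

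Among the regulators, Srebf1 was the only sterol arm gene that passed as higher in WT. Srebf1 was at 29.7, 35.0, 33.2 and 31.3 FPKM in WT at 0, 1, 4 and 16 h and at 13.5, 12.5, 12.2 and 12.1 in null. Every WT library lay above every null library (log2 difference 1.29 ± 0.07 SE, limma adjusted p = 0.000112). Insig1, whose product holds SCAP back and which is itself induced by SREBPs, went the other way. It was at 9.95, 11.0, 9.30 and 12.3 FPKM in WT and at 22.5, 22.9, 23.8 and 31.0 in null (log2 difference -1.16 ± 0.07 SE, limma adjusted p = 0.000126). All 4 WT libraries were below the lowest null library. Srebf2, which encodes the SREBP best known for the sterol genes, was at 36.4, 42.2, 36.8 and 36.5 FPKM in WT and 48.7, 46.1, 53.7 and 58.9 in null (log2 difference -0.44 ± 0.10 SE, limma adjusted p = 0.01), and the groups did not overlap. Scap was at 15.3, 17.0, 15.5 and 17.0 FPKM in WT and 21.0, 18.2, 17.9 and 17.0 in null, with overlapping groups (log2 difference -0.18 ± 0.08 SE, limma adjusted p = 0.107).

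Along the route from acetyl-CoA to squalene, the largest differences lay at the isoprenoid and squalene steps. Fdps, which makes farnesyl diphosphate, was at 32.0, 31.5, 27.4 and 32.5 FPKM in WT at 0, 1, 4 and 16 h and at 56.3, 49.2, 65.3 and 114 in null (log2 difference -1.11 ± 0.20 SE, limma adjusted p = 0.00462). Fdft1, squalene synthase, was at 12.9, 12.1, 11.0 and 11.9 FPKM in WT and 21.6, 20.2, 25.1 and 31.9 in null (log2 difference -0.96 ± 0.13 SE, limma adjusted p = 0.00161). For both enzymes every WT library was below every null library, and the null 16 h library was the highest. Idi1, the isomerase before Fdps, was lower in WT by the same measure (-0.92 ± 0.16 SE), as was the kinase Pmvk (-0.84 ± 0.18 SE). Smaller differences passed for the thiolase Acat2 (-0.42) and the kinase Mvk (-0.20); Mvk no longer passed in 8 of 19 alternatives. The decarboxylase Mvd was at 9.19 ± 0.995 FPKM in WT and 12.0 ± 2.24 in null (SD, n = 4 each) and did not pass (log2 difference -0.34 ± 0.15 SE, limma adjusted p = 0.101).

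From squalene onward, Sqle and Cyp51 differed most. Sqle, squalene epoxidase, a rate-controlling step of the sterol branch, was at 28.3, 25.6, 22.5 and 25.1 FPKM in WT and at 69.1, 61.3, 68.2 and 92.4 in null (log2 difference -1.47 ± 0.11 SE, limma adjusted p = 0.000274). Every null library lay above every WT library. Cyp51, lanosterol demethylase, was at 12.7, 13.6, 11.6 and 12.7 FPKM in WT and at 28.2, 27.6, 40.2 and 65.4 in null (log2 difference -1.51 ± 0.23 SE, limma adjusted p = 0.00263). WT stayed between 11.6 and 13.6, while null ran from 27.6 to 65.4 FPKM. Nsdhl, which helps remove the methyl groups of lanosterol, was lower in WT (-0.39 ± 0.12 SE), and so was the sterol transporter Stard4 (-0.32 ± 0.10 SE); without the 16 h libraries neither passed. Lanosterol synthase Lss (-0.26 ± 0.17 SE), Hsd17b7 (-0.12 ± 0.10 SE), the isomerase Ebp (-0.07 ± 0.06 SE), the reductase Tm7sf2 (-0.01 ± 0.09 SE) and Dhcr7, the final reductase of the route (-0.03 ± 0.10 SE), did not pass.

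The counts in the fatty acid arm, 5 higher and 4 lower of 12, are near the shares of all genes given above, and the genes are described one by one. Higher in WT were Acly, which supplies acetyl-CoA from citrate (log2 difference 0.81 ± 0.12 SE, limma adjusted p = 0.00215), the synthase Fasn (log2 difference 0.52 ± 0.07 SE, limma adjusted p = 0.00211) and the carboxylase Acaca (log2 difference 0.30 ± 0.06 SE, limma adjusted p = 0.00574). Acly was at 39.4, 45.3, 42.8 and 44.0 FPKM in WT at 0, 1, 4 and 16 h and 22.0, 19.3, 24.8 and 31.4 in null. Fasn was at 52.8, 54.4, 57.1 and 56.5 in WT and 35.5, 34.2, 37.5 and 46.7 in null, and for both genes the groups did not overlap. The front-end desaturases of polyunsaturated fatty acids, Fads1 (0.35 ± 0.05 SE) and Fads2 (0.49 ± 0.07 SE), were higher in WT too. Elovl6, which lengthens saturated chains, and the desaturases Scd1 and Scd2 were lower. Elovl6 was at 3.93, 3.81, 2.56 and 3.07 FPKM in WT and 10.5, 9.35, 8.98 and 13.2 in null (log2 difference -1.41 ± 0.13 SE, limma adjusted p = 0.000429). Scd1 was at 23.4, 21.5, 16.6 and 23.1 in WT and 45.5, 39.4, 40.9 and 48.5 in null (log2 difference -1.02 ± 0.08 SE, limma adjusted p = 0.000259). Neither gene's groups overlapped, and each WT library of Elovl6 held less than its time-matched null library with a log2 difference of -1.11 or lower. Scd2 was at 116, 119, 99.8 and 161 FPKM in WT and 167, 162, 213 and 364 in null (log2 difference -0.81 ± 0.14 SE, limma adjusted p = 0.0048), and the groups did not overlap, though the highest WT library (16 h) came close to the lowest null library (1 h). Elovl1, an elongase of very long chains, was lower as well (-0.57 ± 0.12 SE). Elovl5 (-0.21 ± 0.08 SE), the NADPH-producing malic enzyme Me1 (-0.19 ± 0.09 SE) and Acss2 (-0.07 ± 0.11 SE) did not pass.

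**Figure D1:**
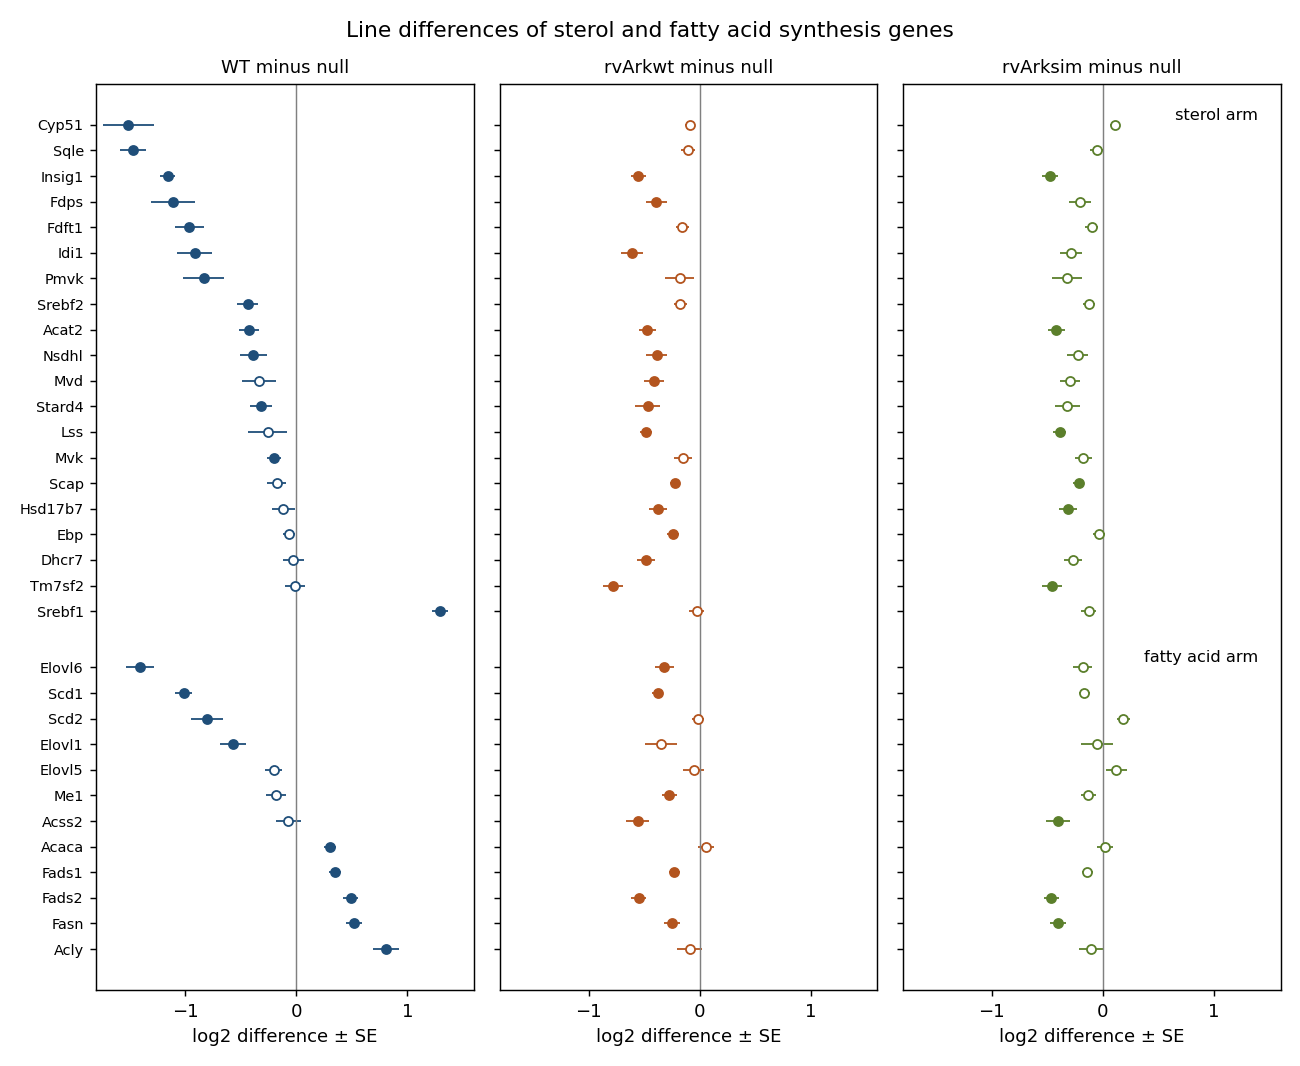
Log2 difference from null (x axis, ± SE) of the 32 genes (rows, sterol arm above, fatty acid arm below) for WT in set A and for rvArkwt and rvArksim in set B; filled points have an adjusted p below 0.05. WT ranges from -1.51 for Cyp51 to 1.29 for Srebf1, while in rvArkwt no gene passes as higher and 20 pass as lower.

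For most sterol genes the difference of WT from null was lower at 4 and 16 h of TGFβ than at 0 and 1 h. The median sterol difference of the time-matched pairs (WT minus null, 1 library each, log2) was -0.23 at 0 h, -0.15 at 1 h, -0.48 at 4 h and -0.72 at 16 h. The fatty acid median was 0.02, 0.07, -0.22 and -0.33 at the same times, and the median over all genes 0.05, 0.05, 0.07 and 0.10. The lowest of a gene's 4 differences was at 16 h for 13 of 20 sterol genes and 10 of 12 fatty acid genes. The share of all genes lowest at 16 h was not counted. Cyp51 went from -1.09 at 0 h to -2.28 at 16 h, and Lss from 0.01 to -0.83. For genes higher in WT, a lower difference at 16 h is a smaller gap: Acly went from 0.81 at 0 h to 0.47 at 16 h, Fasn from 0.56 to 0.27 and Fads2 from 0.44 to 0.31. Srebf1 was 1.08 at 0 h and 1.30 at 16 h. Without the 16 h libraries, an alternative added after the data were seen, 6 members were higher and 13 lower.

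The null 16 h library was high for most sterol genes. Between 0 and 16 h in null of set A, 17 of 20 sterol genes had a positive difference and 12 were at least 25% higher at 16 h on the FPKM + 1 scale, which these counts use, with none lower by the same ratio, and the median was 0.43. In the fatty acid arm 10 of 12 lay above 0 and 5 were at least 25% higher, with a median of 0.28. Of all 10976 genes, 4297 lay above 0 in null, 12.0% were that much higher and 2487 were lower by the same ratio. In WT no sterol gene and 2 fatty acid genes (Scd2 and Acaca) were at least 25% higher, against 8.36% of all genes, and the sterol median was -0.04. In null, Cyp51 went from 28.2 to 65.4 FPKM and Scd2 from 167 to 364. In WT, Cyp51 was at 12.7 FPKM at both times. These are pairs of single libraries with no replicate check. An untreated library harvested at 16 h was not used here, so TGFβ and time in culture cannot be told apart.

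**Figure D2:**
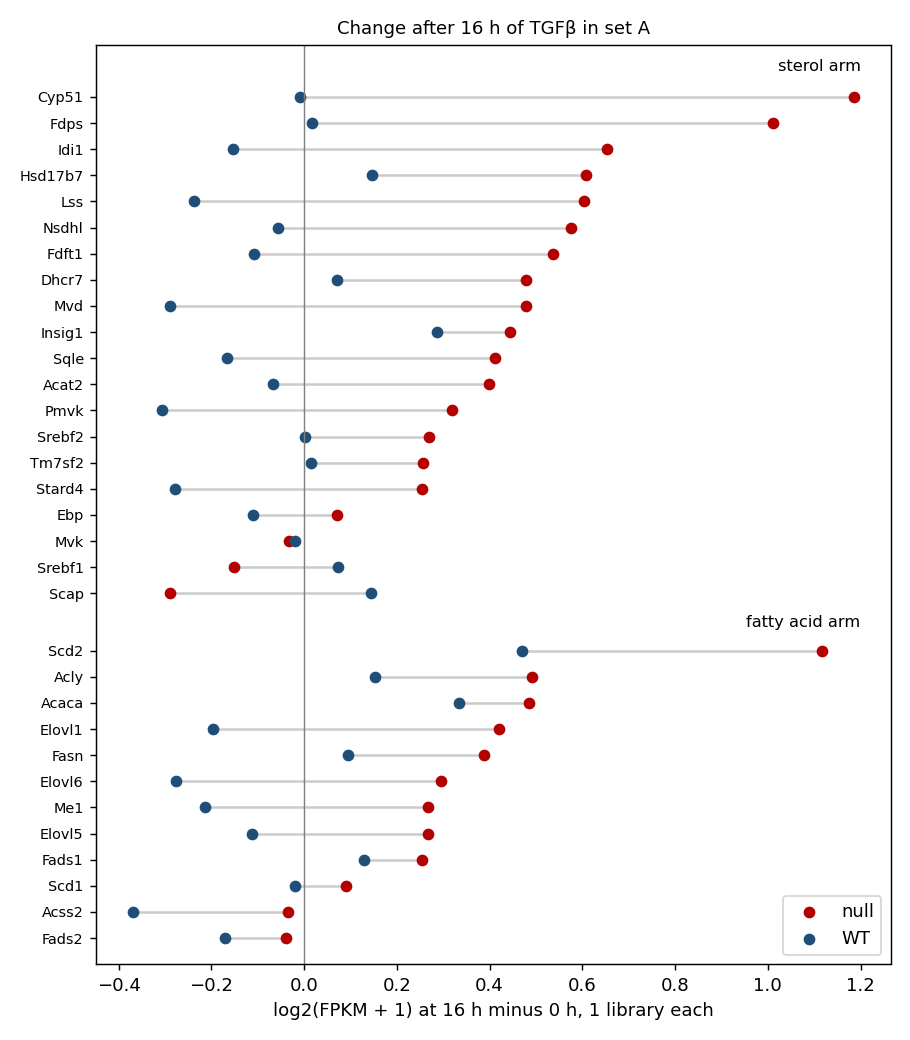
Change in log2(FPKM + 1) from 0 to 16 h (x axis) of each gene (rows) in null (red) and WT (blue) of set A, 1 library per line and time. In null 17 of 20 sterol genes lie above 0, up to 1.19 for Cyp51, against 4297 of all 10976 genes. The WT points of the sterol arm lie between -0.31 and 0.29.

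Null cells with returned Arkadia were then compared with null cells of the same set. With rvArkwt, 13 of 20 sterol genes and 7 of 12 fatty acid genes passed as lower and none as higher, with medians of -0.38 and -0.26. Over the 10958 genes tested, 22.6% were lower and 16.0% higher, and the median was -0.03. With rvArksim, 6 sterol and 3 fatty acid genes passed as lower and none as higher (medians -0.25 and -0.14), against 20.8% lower and 13.9% higher of all genes. Both comparisons use the same null libraries, at 0 and 1 h. Where levels are said to overlap or not with null of set B, the 4 h libraries are therefore set against null at 0 and 1 h. Quantile normalization gave 8 lower and 2 higher members for rvArksim. The summed sterol arm was at 429 to 454 FPKM in rvArkwt and 467 to 475 in rvArksim, below the 528 to 559 of the 2 null libraries. Lpl and Cebpa, the adipocyte markers in the table, summed to 17.7 to 32.0 FPKM in rvArkwt, 24.1 to 41.0 in rvArksim and 143.8 to 151 in null, and fibroblast markers summed to more in each reconstituted library than in null. Of the 2 adipocyte markers, 1 was lower in rvArkwt (-2.34) and 1 did not pass (0.41). In rvArksim 1 was likewise lower (-1.93) and 1 did not pass (0.28). Epithelial markers summed to 10.7 to 18.2 FPKM in rvArkwt, 12.2 to 22.0 in rvArksim and 38.5 to 42.4 in null, and their part in the result was not tested. These counts lean on the null libraries: without null at 0 h, 6 members passed for rvArkwt and 0 for rvArksim, and without null at 1 h, 7 and 2. Without rvArkwt at 0 h 11 passed for that line and without rvArkwt at 1 h 8, and without rvArksim at 0 h 5 passed for rvArksim.

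Of the regulators, Insig1 was lower in both reconstituted lines. It was at 28.5 and 29.1 FPKM in null of set B at 0 and 1 h, at 19.3, 20.0 and 21.9 in rvArkwt at 0, 1 and 4 h and at 18.7, 21.5 and 24.9 in rvArksim. No reconstituted library reached the null level (rvArkwt log2 difference -0.55 ± 0.07 SE, limma adjusted p = 0.00287; rvArksim -0.48 ± 0.07 SE, limma adjusted p = 0.00531). Scap was at 21.8 and 21.7 FPKM in null, 18.6, 18.2 and 17.6 in rvArkwt and 19.1, 18.3 and 17.2 in rvArksim, lower in each (-0.22 and -0.22). Srebf1 was at 18.1 and 16.4 FPKM in null, 16.2, 17.1 and 18.6 in rvArkwt and 16.2, 15.6 and 16.4 in rvArksim. In neither line did Srebf1 pass, with 95% intervals of -0.20 to 0.14 for rvArkwt and -0.30 to 0.04 for rvArksim, both of which lie below the WT minus null difference of set A. Srebf2 was at 59.6 and 60.0 in null, 50.5, 53.8 and 60.8 in rvArkwt and 54.8, 56.6 and 59.2 in rvArksim and did not pass (-0.17 and -0.12).

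Among sterol enzymes, the largest difference in rvArkwt was that of Tm7sf2. Tm7sf2, a sterol reductase, was at 5.65 and 4.41 FPKM in null, 2.78, 2.29 and 1.89 in rvArkwt and 3.34, 3.33 and 2.72 in rvArksim. It differed by -0.78 ± 0.09 SE in rvArkwt (limma adjusted p = 0.00245) and by -0.46 ± 0.09 SE in rvArksim (limma adjusted p = 0.0158). Idi1 was at 36.1 and 34.5 FPKM in null, 24.7, 22.4 and 17.0 in rvArkwt and 31.3, 24.6 and 24.9 in rvArksim, where rvArkwt passed (log2 difference -0.61 ± 0.10 SE, limma adjusted p = 0.00768) and rvArksim did not (-0.28, limma adjusted p = 0.0818). Dhcr7 was at 10.00 and 8.87 FPKM in null, 6.60, 6.66 and 4.42 in rvArkwt and 7.51, 7.36 and 5.93 in rvArksim, and was lower in rvArkwt (log2 difference -0.48 ± 0.08 SE, limma adjusted p = 0.00814). Its lowest values were the 4 h libraries. Lss was at 20.1 and 18.2 FPKM in null, 14.2, 12.4 and 13.2 in rvArkwt and 15.0, 14.2 and 13.5 in rvArksim, with both lines below null (-0.48 and -0.39). Acat2 was at 37.9 and 34.2 FPKM in null, 27.5, 25.3 and 22.7 in rvArkwt and 25.7, 26.2 and 26.1 in rvArksim, again with no overlap (-0.47 and -0.42). In rvArkwt, Stard4 (-0.47), Mvd (-0.41), Fdps (-0.39), Nsdhl (-0.39), Hsd17b7 (-0.38) and Ebp (-0.24) passed as lower too, and in rvArksim Hsd17b7 did (-0.32). Sqle and Cyp51, far apart in set A, did not pass: Sqle was at 62.4 and 59.1 FPKM in null, 59.9, 55.7 and 52.1 in rvArkwt and 59.5, 54.8 and 58.8 in rvArksim, and Cyp51 at 30.2 and 30.3, 28.8, 28.4 and 33.8 and 32.4, 32.5 and 40.0. Fdft1, Mvk and Pmvk did not pass in either line.

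In the fatty acid arm of set B, Acss2 was at 2.01 and 1.99 FPKM in null, 1.05, 0.956 and 0.598 in rvArkwt and 1.50, 1.13 and 0.651 in rvArksim, lower in both on the log2(FPKM + 1) scale, which understates the change of so low a gene (-0.56 and -0.41). Fads2 was at 159.9 and 161 FPKM in null, 103, 109.9 and 115 in rvArkwt and 116, 122 and 111 in rvArksim, and neither line reached null (log2 difference -0.55 ± 0.07 SE, limma adjusted p = 0.00288 for rvArkwt, and -0.46 for rvArksim). In set A the same gene was higher in WT than in null. Scd1 was at 66.0 and 62.2 FPKM in null, 52.7, 46.1 and 32.3 in rvArkwt and 60.7, 53.0 and 38.3 in rvArksim and passed in rvArkwt (log2 difference -0.38 ± 0.05 SE, limma adjusted p = 0.00363). Elovl6 was at 9.76 and 8.94 in null, 8.19, 6.96 and 4.32 in rvArkwt and 8.44, 7.29 and 5.63 in rvArksim, and passed in rvArkwt (-0.32), where 8 of 18 alternatives ended the call. Fads1 (-0.23), Me1 (-0.27) and Fasn (-0.25) passed as lower in rvArkwt, and Fasn in rvArksim (-0.40). Fasn was at 35.0 and 36.8 FPKM in null, 29.1, 29.3 and 42.0 in rvArkwt and 27.6, 27.8 and 33.6 in rvArksim, with rvArkwt at 4 h above null. In rvArkwt the call was lost for Fasn in 11, for Me1, Fdps and Scap in 7 each and for Nsdhl in 6 of 18 alternatives. In rvArksim it was lost for Acss2 in 11 of 17 and for Hsd17b7 and Scap in 9 of 18 each. Acaca, Scd2, Acly, Elovl1 and Elovl5 did not pass in either line. Tm7sf2, Lss, Insig1 and Fads2 passed for rvArkwt in every alternative run.

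The wild-type and sim forms of Arkadia were compared directly over 3 times each. No member passed in limma, with or without the trend, against 0.137% of genes higher and 0.356% lower. At an unadjusted limma p below 0.05, 7 members were lower in rvArkwt and 0 higher, and the share of all genes at that level was not counted. The smallest p-values in the sterol arm belonged to Cyp51 (-0.20 ± 0.04 SE, 95% interval -0.30 to -0.10, limma adjusted p = 0.126) and Ebp (-0.20 ± 0.05 SE, interval -0.32 to -0.09, limma adjusted p = 0.156). In the fatty acid arm they belonged to Scd1 (-0.21 ± 0.04 SE, interval -0.32 to -0.10, limma adjusted p = 0.132) and Scd2 (-0.20 ± 0.05 SE, interval -0.32 to -0.07, limma adjusted p = 0.178). Ebp was at 22.9, 21.6 and 21.8 FPKM in rvArkwt and 26.2, 26.4 and 24.1 in rvArksim, and Scd2 at 212, 201 and 161 and 233, 226 and 197. Rnf111 itself differed between these lines (112.8 ± 11.9 against 59.7 ± 3.30 FPKM, SD, n = 3 each), so the form and the amount of Arkadia cannot be told apart. A p that misses the threshold does not show that the forms act alike.

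**Figure D3:**
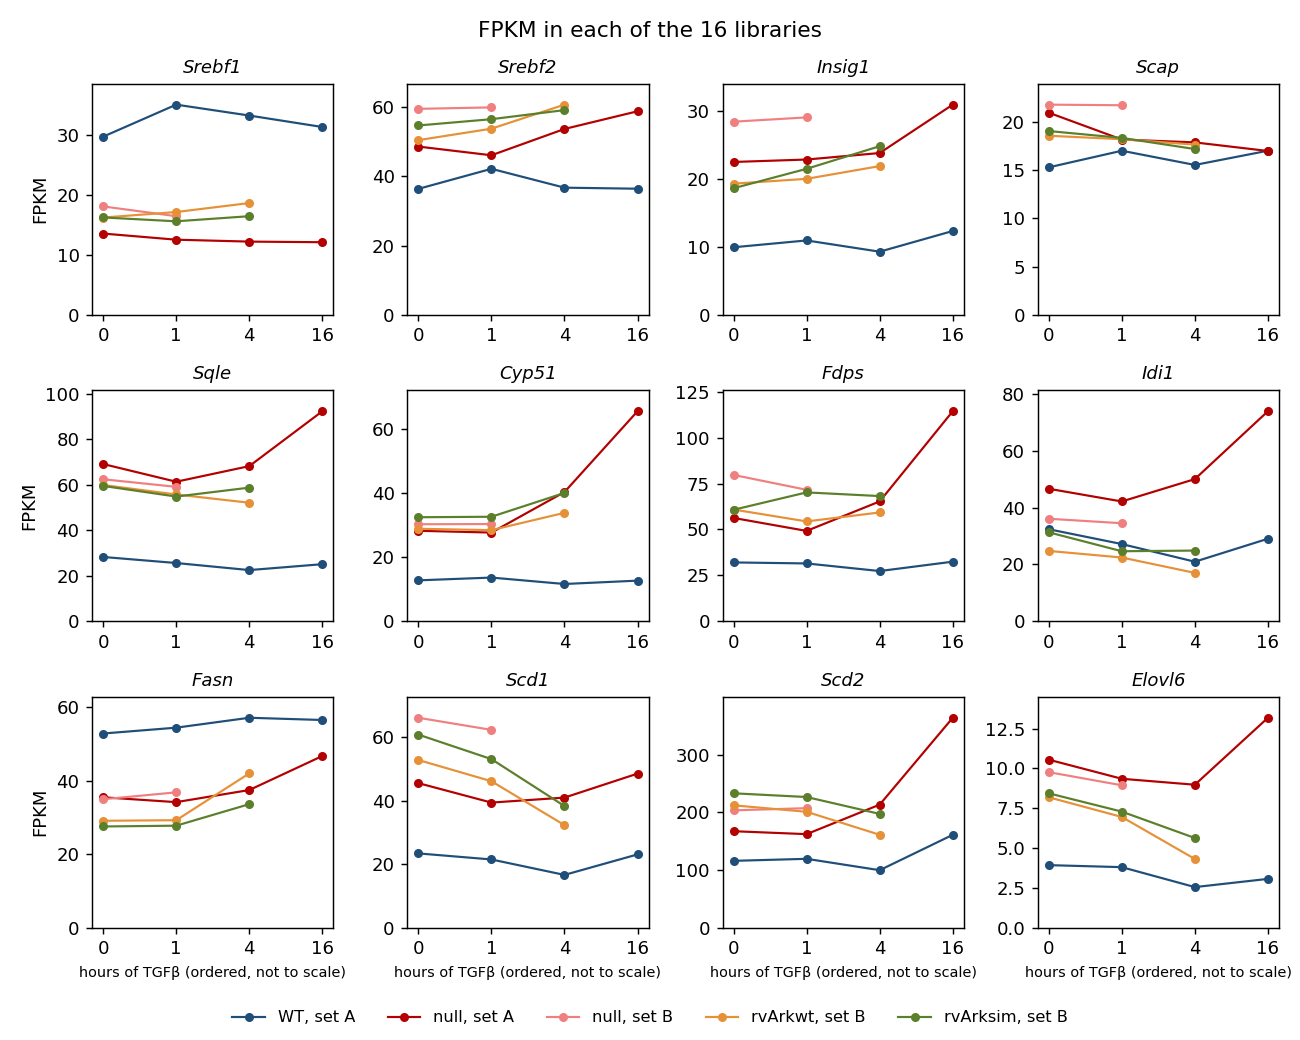
FPKM (y axis, from 0) of 12 genes against hours of TGFβ (x axis, ordered, not to scale), 1 point per library and 1 line per time series. Within set A, Srebf1 lies higher and Sqle and Cyp51 lower in WT than in null at each time, and the null series of Cyp51, Fdps and Scd2 are highest at 16 h.

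Because null cells were sequenced in both sets at 0 and 1 h, the sets could be compared at those times without a change of line. The fit used all 16 libraries, with time effects shared by the lines, so 4 and 16 h libraries enter too. In it 3 members were higher and 9 lower in null of set A than of set B, against 14.9% higher and 20.8% lower of 11045 genes. Its values can differ from the pairs at 0 and 1 h: Idi1 was 0.36 and 0.28 there, and Cyp51 -0.10 and -0.13, against 0.11 in the fit. Idi1 (0.52 ± 0.16 SE), Me1 (0.45 ± 0.09 SE) and Elovl5 (0.32 ± 0.10 SE) were higher in set A. Elovl1 (-0.62), Tm7sf2 (-0.48), Scd1 (-0.47), Fads2 (-0.46), Srebf1 (-0.42), Mvk (-0.41), Insig1 (-0.32), Fads1 (-0.25) and Ebp (-0.23) were lower. In the single-library pairs at 0 h the median set difference was -0.33 in the sterol arm and -0.29 in the fatty acid arm. The rvArkwt minus null pairs of set B at 0 h had medians of -0.31 and -0.25. In the fits the medians were -0.21 and -0.17 for the set difference, beside -0.38 and -0.26 for rvArkwt minus null within set B. Fitted on the 0 and 1 h libraries of all lines, an alternative added after the data were seen, 3 members were higher and 20 lower. The share of all genes under this alternative is not reported here. Without null at 0 h of set B, 2 members passed, and without null at 1 h of set B, 6. Levels are therefore compared within a set only.

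The effects of the 2 sets, WT minus null and rvArkwt minus null, were tested against each other in 1 fit. They differed for 18 of 32 members, 9 with the WT effect higher and 9 with it lower, against 33.2% and 21.6% of all genes, so the count is near the background share. The median over all genes was 0.12, and median-ratio scaling moved it to 0.0047 and gave 7 higher and 10 lower members. Srebf1 differed most clearly (log2 difference 1.30 ± 0.11 SE, limma adjusted p = 3.34e-06), with a WT effect of 1.29 and an rvArkwt effect of -0.03. Fads2 (1.02 ± 0.11 SE), Fads1 (0.59 ± 0.07 SE), Acly (0.87), Fasn (0.72), Acaca (0.25) and Acss2 (0.50) had the higher effect in WT, as had the sterol reductases Tm7sf2 (0.79) and Dhcr7 (0.51). Neither Acaca nor Dhcr7 passed after median-ratio or quantile scaling, and Pmvk was lost in 10 of 24 alternatives. Cyp51 (-1.44 ± 0.28 SE), Sqle (-1.38 ± 0.14 SE), Fdft1 (-0.80), Fdps (-0.72), Pmvk (-0.68) and Insig1 (-0.65) had the lower effect in WT, with Elovl6 (-1.04), Scd2 (-0.73) and Scd1 (-0.58). The 14 others did not pass, among them Idi1 (-0.28, 95% interval -0.74 to 0.18) and Acat2 (0.05, interval -0.22 to 0.32). The test compares effects across sets, times and lines at once, and which of these differs cannot be told apart.

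**Figure D4:**
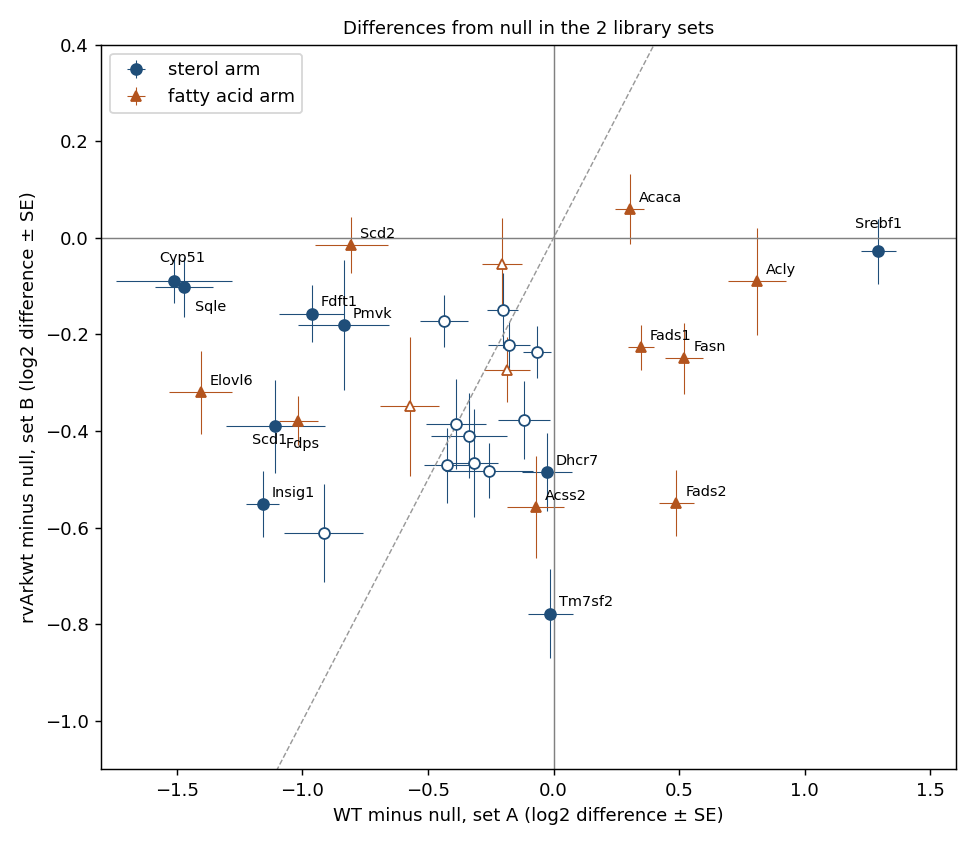
Log2 difference from null (± SE) of each gene in WT of set A (x axis) and in rvArkwt of set B (y axis); circles are sterol genes, triangles fatty acid genes, filled where the 2 effects differ at an adjusted p below 0.05, and the dashed line marks equal effects. All 20 sterol genes lie below 0 on the y axis, with 1 of them, Srebf1, above 0 on the x axis.

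The TGFβ response used every library, each of the 5 time series having its own level in the fit. At 1 h no member passed (limma, also without the trend, and none at an unadjusted p below 0.05), against 3.95% of 11045 genes higher and 2.01% lower. The smallest p-values belonged to Nsdhl (-0.15 ± 0.09 SE, limma adjusted p = 0.428) and Idi1 (-0.18 ± 0.11 SE, limma adjusted p = 0.455) in the sterol arm. In the fatty acid arm they belonged to Scd1 (-0.16 ± 0.08 SE, limma adjusted p = 0.313) and Elovl6 (-0.14 ± 0.10 SE, limma adjusted p = 0.517).

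At 4 h, 4 sterol genes fell and none rose, and in the fatty acid arm 3 fell and 1 rose, against 27.1% of all genes lower and 11.9% higher and an all-gene median of -0.08. The arm medians were -0.10 and -0.06; the 7 of 32 members that fell are near the background share. Scd1 (log2 difference -0.48 ± 0.08 SE, limma adjusted p = 0.00189), Elovl6 (-0.49 ± 0.11 SE) and Acss2 (-0.40 ± 0.09 SE) fell, and Fasn rose (0.25 ± 0.08 SE). The change of Scd1 from 0 to 4 h was -0.47 in WT, -0.15 in null, -0.69 in rvArkwt and -0.65 in rvArksim on the log2 scale, the same direction in each of the 4 series. In the sterol arm the kinases Pmvk (-0.41 ± 0.15 SE) and Mvk (-0.30 ± 0.06 SE) fell with Dhcr7 (-0.30 ± 0.10 SE) and Tm7sf2 (-0.24 ± 0.08 SE). The call was lost for Pmvk in 21 and for Dhcr7 in 11 of 26 alternatives, for Tm7sf2 in 11 of 25 and for Fasn in 8 of 26.

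Mvk was at 12.0, 12.8, 9.29 and 11.9 FPKM in WT at 0, 1, 4 and 16 h, 14.5, 13.1, 11.6 and 14.1 in null of set A, 19.0 and 18.8 in null of set B at 0 and 1 h, 18.7, 15.4 and 14.4 in rvArkwt and 16.6, 16.6 and 14.1 in rvArksim at 0, 1 and 4 h. In each series with a 4 h library that library lay below the 0 h one. Pmvk was at 9.07, 7.33, 3.82 and 7.14 FPKM in WT, 12.1, 11.2, 11.8 and 15.3 in null of set A, 19.7 and 17.2 in null of set B, 15.6, 15.4 and 13.8 in rvArkwt and 13.5, 16.8 and 10.6 in rvArksim. The difference from 0 to 4 h was largest in WT (-1.06, against -0.03 in null), and without WT at 4 h it did not pass (log2 difference -0.26). With set A alone no member passed at 4 h, and with set B alone 11 did, 3 higher and 8 lower. Median-ratio scaling gave 3 higher and 4 lower members and quantile normalization 1 higher and 4 lower. The count was 5 without WT at 0 h and 4 without any one of rvArkwt at 0 or 4 h, rvArksim at 0 or 4 h, or null of set B at 0 or 1 h.

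At 16 h, measured in set A only, 2 sterol and 3 fatty acid genes rose and none fell, against 6.84% of all genes higher and 12.5% lower. Acaca rose from 12.8 to 16.4 FPKM in WT and from 9.59 to 13.8 in null (log2 difference 0.42 ± 0.07 SE, limma adjusted p = 0.00218). Scd2 went from 116 to 161 in WT and from 167 to 364 in null (log2 difference 0.72 ± 0.16 SE, limma adjusted p = 0.011). Both genes were higher at 16 h in each line. Insig1 rose (0.41 ± 0.09 SE), and so did Hsd17b7 (0.42 ± 0.11 SE) and, by less, Fads1 (0.17 ± 0.05 SE), whose call was lost in 16 of 25 alternatives. Hsd17b7, an enzyme of lanosterol trimming, was at 7.91, 7.23, 7.36 and 8.86 FPKM in WT and 7.67, 6.56, 8.67 and 12.2 in null of set A. Fads1 was at 88.2, 92.9, 85.8 and 96.5 FPKM in WT and 68.6, 66.8, 68.1 and 81.9 in null. The count depended on which library stood for 16 h: without WT at 16 h 16 members passed, without null at 16 h 1 did, without null at 0 h of set A 3, and with set A alone none.

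The response was last compared between lines that carry Arkadia (WT, rvArkwt, rvArksim) and null. At 4 h, where null had 1 library, in set A, no member passed in limma, with or without the trend. Of all genes, 0.0181% were higher and 0.0181% lower. At an unadjusted limma p below 0.05 there were 8 members, each with the lower response in Arkadia-carrying cells. The share of all genes at that unadjusted level was not counted. At 16 h, which rests on WT and null of set A, 2 members responded less in WT, against 0.453% of genes lower and 1.17% higher. These were Lss (log2 difference -0.85 ± 0.14 SE, limma adjusted p = 0.0367) and Scd2 (log2 difference -0.71 ± 0.10 SE, limma adjusted p = 0.0239). Lss was at 15.2, 14.8, 12.5 and 12.7 FPKM in WT and at 15.1, 12.9, 16.7 and 23.4 in null, so the 16 h library stood below the 0 h library in WT and above it in null. The fit matches the only 16 h library of WT and of null exactly. The p-values of the 16 h test therefore rest on scatter at the earlier times and cannot gauge variation at 16 h. Over the arms the median difference of responses was -0.45 in the sterol arm and -0.36 in the fatty acid arm, against 0.04 over all genes. For Cyp51 the difference was -1.14 ± 0.21 SE (limma adjusted p = 0.0525) and for Fdps -0.93 ± 0.19 SE (limma adjusted p = 0.0625), neither past the threshold. The calls were fragile: leaving out a library gave 0 to 8 members, and neither gene passed without the rvArksim libraries, or without WT at 0 h, WT at 1 h, rvArksim at 1 h, or null at 0 h or 1 h of either set. Without rvArkwt at 0 h or rvArksim at 0 h 1 gene passed, and without WT at 4 h 8 did.

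Other genes of the pathway, from lists drawn up with the members, moved in both directions. Of 22 tested genes of sterol synthesis, sensing and uptake, 4 were higher and 9 lower in WT than in null, against 37.4% and 30.1% of all genes. Mylip, a ubiquitin ligase (-1.70), the lipoprotein receptor Vldlr (-1.90) and the mitochondrial thiolase Acat1 (-0.84) were lower, and the sterol carrier Stard3 was higher (1.04). The enzymes Sc4mol, a methyl oxidase (-1.03), and Sc5d, a desaturase (-0.72), were lower too. In rvArkwt 4 of these genes were higher and 7 lower (16.0% and 22.6% of all genes), with Osbp at -0.59 and Lrp1 at 0.74, and in rvArksim 4 and 8 (13.9% and 20.8% of all genes), with Osbp at -0.50 and Vldlr at 1.14.

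Of 23 tested genes of other fatty acid synthesis and lipid assembly, 4 were higher and 9 lower in WT, against 37.4% and 30.1% of all genes, with the enoyl reductase Tecr (1.02) and Mlxip (0.84) higher and Fads3 (-1.56) and Idh1 (-1.24) lower. In rvArkwt 3 were higher and 4 lower of 22, against 16.0% and 22.6% of all genes, among them Elovl7 (-1.28) and Fads3 (-0.61), and in rvArksim 2 and 5, near the 13.9% and 20.8% of all genes, again with Fads3 (-0.76) and Elovl7 (-1.26). Fatty acid oxidation, the opposing route, was split in WT, with 5 of 21 genes higher and 10 lower: Acadvl (0.77) and the carnitine carrier Slc25a20 (0.73) were higher and Ech1 lower (-0.79). The all-gene shares are the same as for the list before. In rvArkwt 2 oxidation genes were higher and 7 lower, with Etfb at -0.57, and in rvArksim 0 and 6, with Etfb at -0.62 and Ppard at -0.50.

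Of the oxidation genes, 10 of 21 fell and 1 rose at 4 h of TGFβ, against 27.1% and 11.9% of all genes, with Hadh at -0.46 and Acadm at -0.73, and at 16 h 10 fell and none rose, against 12.5% and 6.84% of all genes, with Ech1 at -0.50 and Echs1 at -0.42 and a list median of -0.36. At 1 h the carnitine transferase Cpt1a rose (0.50) and Pdk4 fell (-0.40). Among other sterol genes Mylip rose at 1 h (0.49). At 4 h 4 rose and 2 fell, and at 16 h 3 rose and 1 fell, of 22 and against the same shares, with Lrp1 up (0.42 and 0.62) and Insig2, the relative of Insig1, down (-0.63 and -0.75). Among other fatty acid genes 3 of 23 rose and 6 fell at 4 h, near the shares of all genes, and 4 rose and 8 fell at 16 h, with Acsbg1, an acyl-CoA synthetase, up (0.93 and 2.16), Idh1 down at 4 h (-1.01) and Acsl5 down at 16 h (-0.33).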

How the data were processed

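Poly(A)-selected, stranded RNA sequencing of 16 MEF libraries was used as 1 table of FPKM values, which the authors deposited. Per the submitters' processing notes the build was mm9 and the software Cufflinks 2.2.1, STAR 2.3.0e, CASAVA 1.8.2 and SAMtools. The annotation, multi-read handling and normalization are not given in the sources. Every sample column was mapped (0 left over). Read depth is unknown. Genes averaging 1 FPKM or more were kept, and log2(FPKM + 1) was fitted with limma-trend (limma 3.58.1, R 4.3.3) and Benjamini-Hochberg adjustment over all genes tested at 0.05; the fits were tested on simulated data. Line differences were fitted within a set with time as a block, and TGFβ responses and their differences by status over all libraries with the time series as a block. The members and lists were chosen with earlier results of these data known. Named genes were the regulators, up to 6 sterol and 4 fatty acid members with the largest passing differences per comparison (where none passed, the 2 with the smallest p per arm), every member passing a set or response difference, and up to 4 genes of each other list with the smallest p; others were named after their values were seen, and some genes of the other lists are not reported here. Alternatives were pseudocounts of 0.1 and 5, a minimum of 5 FPKM or none, quantile or median-ratio scaling, robust variances, no variance trend, other model terms, single sets, and leaving out each library in turn. Those without the 16 h libraries and with only the 0 and 1 h libraries of all lines were added after seeing the data. The promoter rule, members with TCACNCCAC, found none, so CCAAT-box promoters were shown.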

Additional observations from a re-analysis of the deposited data

Results flagged for a closer look

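The effect of WT against null in set A and that of rvArkwt against null in set B differed, in a test of the difference itself, for 18 genes (log2 difference of effects, WT effect minus rvArkwt effect, limma adjusted p below 0.05). Of all genes tested, 33.2% had the higher and 21.6% the lower WT effect by the same test, so the count is near the background share. The WT effect was the higher for Srebf1 (1.30), Fads2 (1.02), Acly (0.87), Tm7sf2 (0.79), Fasn (0.72), Fads1 (0.59), Dhcr7 (0.51), Acss2 (0.50) and Acaca (0.25). It was the lower for Cyp51 (-1.44), Sqle (-1.38), Elovl6 (-1.04), Fdft1 (-0.80), Scd2 (-0.73), Fdps (-0.72), Pmvk (-0.68), Insig1 (-0.65) and Scd1 (-0.58).

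The 16 h response differed between WT and null of set A for Lss (-0.85) and Scd2 (-0.71), the fitted response of WT minus that of null. Each line had 1 library at 16 h, so variation at that time was not measured. Between 0 and 16 h Lss changed by -0.24 in WT and 0.60 in null, and Scd2 by 0.47 and 1.12, 1 library at each time.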

How the results depend on the processing

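No gene's difference reversed in any of the 2042 combinations of a passing gene and an alternative; 1747 kept their side of the threshold and 295 no longer passed. Counts of members that passed, when each library was left out in turn, ran from 19 to 22 for WT minus null, 6 to 20 for rvArkwt minus null, 0 to 13 for rvArksim minus null, 4 to 9 for TGFβ at 4 h, 1 to 16 for TGFβ at 16 h, 2 to 17 for null of set A minus set B, 13 to 19 for the difference of the effects and 0 to 8 for the 16 h response by Arkadia status. The counts of 0 for rvArkwt minus rvArksim, TGFβ at 1 h and the 4 h response by status stayed 0 in every alternative run. Dropping the time block left 11 members for rvArkwt and 3 for rvArksim, from 20 and 9. Quantile normalization gave 5 members at 4 h, from 8, and 4 for the 16 h response by status, from 2, which became 0 without the rvArksim libraries. With set A alone 0 members passed at 4 h and 0 at 16 h, fewer libraries and fewer residual degrees of freedom being fitted. The 0 and 1 h libraries of all lines alone gave 23 members for set A minus set B, from 12. The cause of the other changes was not tested. Shares of all genes under the alternatives are not reported here, so counts of members under an alternative have no background beside them. No fit was possible for the 4 h response by status without null at 4 h, or for the 16 h response by status without either 16 h library. No paired analysis was possible because the labels give no replicate numbers that groups share; lines were matched by time instead. Depth is unknown, so no counting interval can be given. The variation between libraries left after line, set and time are fitted sets the precision. Differences on the log2(FPKM + 1) scale understate the change of genes as low as Acss2.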
